A study of Mus musculus with 16 samples.

Results

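The genes described here are 10 keratins and surface proteins, grouped as luminal keratins and progenitor markers, with an inducible keratin, Krt6a, among them. The keratins are Krt7, Krt8, Krt18, Krt19, Krt15, Krt6a and Krt23, and the surface proteins are Kit, Epcam and Cd24a. They were taken by gene symbol from a table of 55487 genes measured by RNA sequencing in mouse mammary organoids, 3-dimensional cultures grown from breast cells. All 10 were among the 24252 genes that passed a filter on low counts. The samples were WT (n = 3), from normal breast, and organoids from breast tumors with a PIK3CA mutation (n = 4), a HER2 mutation (n = 4) or both (n = 5), called the PIK3CA mutant, the HER2 mutant and the double mutant. The study title names the alleles as HER2 V777L and PIK3CA H1047R. PIK3CA is the catalytic subunit of a lipid kinase, and HER2 (mouse gene Erbb2) is a receptor tyrosine kinase. All cultures grew in a medium with epidermal growth factor and with conditioned medium holding Rspo1 and Noggin. The promoter behind each allele, the mouse strain, the age and the number of animals per group were not given in the sources used here. Every comparison with WT is therefore also one of tumor with normal tissue, and these cannot be told apart.

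Keratins are the intermediate filament proteins of epithelial cells. A filament is built from pairs of a type I and a type II keratin. Krt8 (type II) and Krt18 (type I) form the basic pair of simple and glandular epithelium, while Krt7 (type II) and Krt19 (type I) are their relatives in ducts and luminal cells. Krt15 and Krt23 are type I keratins, and Krt6a is a type II keratin that epithelia induce on injury. In the mammary gland the luminal layer is known for Krt8 and Krt18 and the basal layer for Krt5 and Krt14. Kit, a receptor tyrosine kinase for stem cell factor, is used to mark luminal progenitors. Epcam, an adhesion molecule, and Cd24a, a small glycosylated membrane protein, are used to sort luminal cells.

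The promoter windows of Krt7, Krt8 and Krt18 are shown because these simple-epithelium keratins varied together between the samples. Epcam and Cd24a also varied with them, so this was not particular to the keratins. Each window runs from 250 bases before to 50 bases after the RefSeq transcription start (GRCm38.p6), written 5′ to 3′ on the gene's strand. Windows were found for 6 of the 10 genes. The windows lie at chr15:101412153-101412452 on the plus strand for Krt7, chr15:102004293-102004592 on the minus strand for Krt8 and chr15:102027966-102028265 on the plus strand for Krt18. Capitals mark matches, on either strand, to the TATA box motif TATAAA, to the E-box motif CACCTG or to AGGAAG, the core of many ETS factor sites, which reads CTTCCT on the other strand.
Krt7: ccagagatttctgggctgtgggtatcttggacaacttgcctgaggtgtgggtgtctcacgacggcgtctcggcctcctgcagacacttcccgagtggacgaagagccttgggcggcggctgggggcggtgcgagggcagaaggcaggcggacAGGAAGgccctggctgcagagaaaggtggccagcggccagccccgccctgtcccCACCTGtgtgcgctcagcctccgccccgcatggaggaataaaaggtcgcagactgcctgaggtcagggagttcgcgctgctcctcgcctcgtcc
Krt8: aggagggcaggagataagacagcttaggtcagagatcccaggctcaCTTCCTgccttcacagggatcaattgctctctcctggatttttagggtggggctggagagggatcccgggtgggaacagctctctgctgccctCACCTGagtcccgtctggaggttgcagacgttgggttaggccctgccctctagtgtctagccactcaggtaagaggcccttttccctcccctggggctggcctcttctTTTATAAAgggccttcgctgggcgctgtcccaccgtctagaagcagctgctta
Krt18: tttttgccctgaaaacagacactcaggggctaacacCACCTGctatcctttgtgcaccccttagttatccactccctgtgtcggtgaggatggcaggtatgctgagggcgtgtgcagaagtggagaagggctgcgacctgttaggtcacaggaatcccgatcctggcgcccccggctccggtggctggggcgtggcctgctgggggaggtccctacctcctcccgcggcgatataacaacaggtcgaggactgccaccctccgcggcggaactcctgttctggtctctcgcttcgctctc
Each of these 3 windows held 1 CACCTG, a motif found in 20.2% of the 32851 windows in the table. The motif was not particular to them, as the window of Krt23 also held 1 and that of Epcam 2, while that of Kit held 0. Krt7 and Krt8 each held 1 AGGAAG match (35.4% of all windows), and Krt8 alone of the 6 windows held TATAAA, with 2 overlapping matches on opposite strands (13.6% of all windows). Neither TGANTCA (an AP-1 motif, in 7.8% of windows) nor AACCGGTT (a grainyhead motif, in 0.1%) occurred in any of the 6 windows. These matches describe letters in the windows and were not tested against the expression values.

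Library totals ranged from 45545182 to 64168308 counts. Levels are CPM, the counts scaled to a common library size. Erbb2 averaged 156 CPM in WT, 168 in the PIK3CA mutant, 3600 ± 803 (SD, n = 4) in the HER2 mutant and 2031 ± 639 (SD, n = 5) in the double mutant. Pik3ca ranged from 61.4 to 85.7 CPM in WT and HER2 mutant samples and from 91.6 to 122 in the samples that carry the PIK3CA mutation. Double mutant samples 2 and 3 stood apart on the second principal component, at -35.6 and -10.9 against 33.6 to 47.8 for the other 3. Marker genes of other cell types differed between WT and the mutants, and some also between the mutants. Summed over 6 macrophage genes, WT samples held 499 to 3013 CPM, against 14.0 to 36.7 in the PIK3CA mutant, 9.05 to 183 in the HER2 mutant and 12.6 to 67.5 in the double mutant. Summed over 6 fibroblast genes, WT held 325 to 1899 CPM, against 65.1 to 471, 34.0 to 624 and 26.2 to 58.0 in the same order. Between the double and HER2 mutants, 2.50% of all tested genes changed. There, 4 of 6 macrophage genes (Ptprc, Lyz2, Adgre1 and Itgam) and 1 of 6 fibroblast genes (Col3a1) were also lower in the double mutant. Within the HER2 mutant, these 4 macrophage genes were raised in samples 1 and 2 only. Lyz2, for one, was at 142, 58.2, 0.200 and 0.123 CPM in samples 1 to 4. The calls of these marker genes stand beside those of Krt8 and Krt19 in the same comparison. The part of these cells in the comparisons of the 10 genes was not tested. The summed level of 18 other epithelial surface and identity genes was similar, at 2631 to 3566 CPM in WT and 2234 to 3633 over the mutants. In bulk samples, more cells of a type and more RNA per cell cannot be told apart.

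Scaled by exon length, the order of the 10 genes was led by Krt18 in every genotype. In WT, Krt18 stood at 369 ± 14.2 CPM per kb of exon (SD, n = 3), Epcam at 225 ± 7.36 and Krt8 at 165 ± 7.91, with no overlap between these 3. Krt19 followed at 107 ± 65.6 CPM per kb, and its samples overlapped those of Krt8 and of Cd24a (66.7 ± 13.1). Krt15 (27.3 ± 11.8) and Kit (22.1 ± 1.45) overlapped each other. Krt7, at 13.3 ± 2.19 CPM per kb, lay below Kit and overlapped Krt15, and Krt6a (6.33 ± 3.12) and Krt23 (4.17 ± 0.693) overlapped at the bottom. In the double mutant, Krt18 (610 ± 287 CPM per kb, SD, n = 5), Krt8 (363 ± 152), Epcam (249 ± 39.3), Krt19 (216 ± 48.1), Cd24a (140 ± 43.0) and Krt7 (60.1 ± 31.0) formed a run in which each overlapped the next. Krt7 thus held rank 8 in WT and rank 6 in the double mutant. The annotated exons of Krt7 sum to 7049 bases and its longest transcript to 4094, so its level per length depends on the isoform counted. With the longest transcript as the length, Krt7 kept these ranks.

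**Figure D1:**
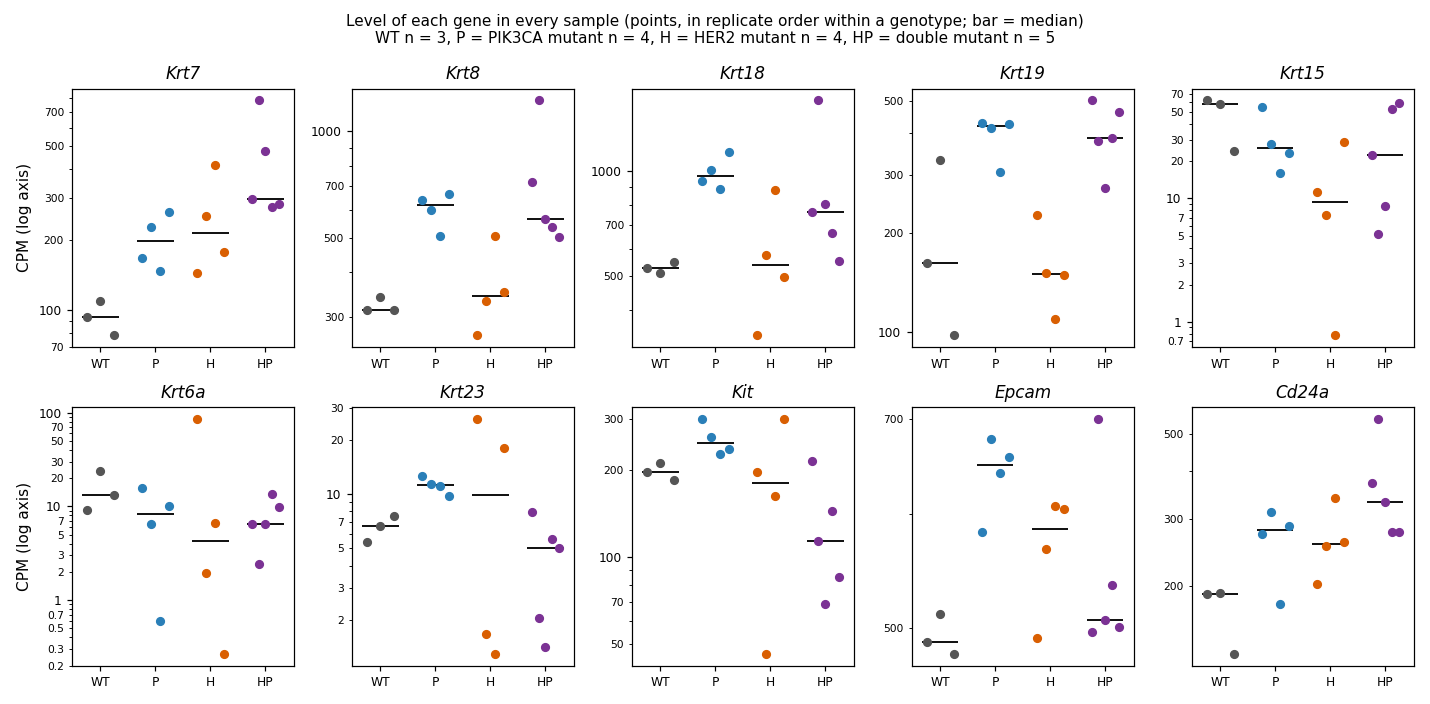
CPM of the 10 genes in every sample, on a log axis of its own for each gene, by genotype (WT, P = PIK3CA mutant, H = HER2 mutant, HP = double mutant), with bars at the medians. Krt7 rises from 78.3 to 109 CPM in WT to 276 to 785 in the double mutant, while Krt15, Krt6a and Krt23 spread widely within genotypes.

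Counted over the 10 genes, the largest number of changes was found between the double mutant and WT. A gene was counted as changed at an adjusted p under 0.05 in edgeR's quasi-likelihood test over all 24252 genes. In the double mutant against WT, 3 of 10 were higher (Krt7, Krt8 and Cd24a) and none lower, where 11.8% of all tested genes changed and 5.03% were higher. In the HER2 mutant against WT, 1 of 10 was higher (Krt7), where 10.4% of all genes changed and 4.75% were higher. In the PIK3CA mutant against WT, 0 of 10 changed, where 4.52% of all genes did. There, 6 of the 10 had an unadjusted p under 0.05, and DESeq2 called 1 (Krt8). Fitted to WT and PIK3CA mutant samples alone, edgeR called 6 (Krt7, Krt8, Krt18, Krt23, Kit and Epcam). The 4.52% does not apply to these counts. Both other fits also called more of all genes than the main fit, as given below. No share of all genes at the unadjusted p is given here. The median log2 difference from WT over the 10 genes was 0.70 in the PIK3CA mutant, 0.19 in the HER2 mutant and 0.44 in the double mutant, beside -0.03, 0.03 and 0.01 over all tested genes. These comparisons share the same 3 WT samples.

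Between the mutants, 2 of 10 genes were higher in the double mutant than in the HER2 mutant (Krt8 and Krt19), where 2.50% of all genes changed and 1.03% were higher. Of all genes called there, 41.1% were higher, and 30.2% with upper-quartile scaling. The HER2 mutant had 1 of 10 lower than the PIK3CA mutant (Krt19), where 4.41% of all genes changed and 2.20% were lower. Between the double mutant and the PIK3CA mutant, 0 of 10 changed by edgeR and 0 by DESeq2, with 2 at an unadjusted p under 0.05 (Krt7 and Kit), where 0.672% of all genes changed. The interaction asks on the log2 scale whether the double mutant departs from the added changes of both other mutants. It was called for 0 of 10 genes by edgeR and by DESeq2, where 1.06% of all genes were called. Epcam alone (1 of 10) had an unadjusted p under 0.05. The shares of all genes are those of edgeR at the adjusted p and do not apply to the unadjusted counts.

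**Figure D2:**
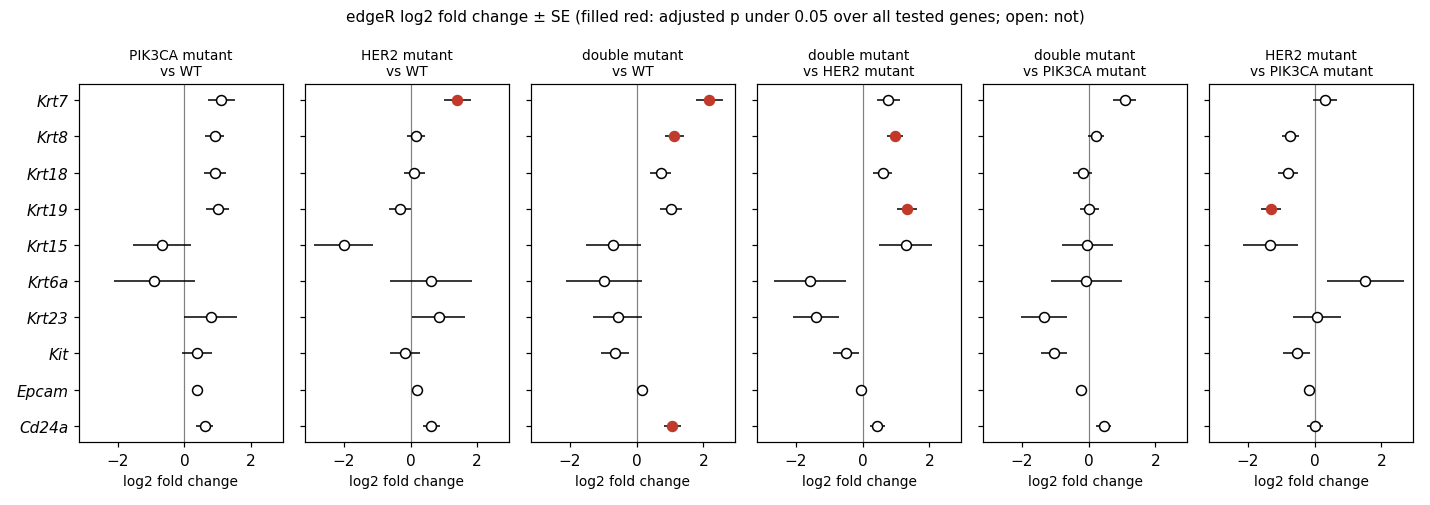
Log2 fold change ± SE of the 10 genes in the 6 comparisons of genotypes, with filled red points at an adjusted p under 0.05. Red points stand at Krt7 against WT in the HER2 and double mutants, Krt8 and Cd24a in the double mutant against WT, Krt8 and Krt19 in the double against the HER2 mutant, and Krt19 in the HER2 against the PIK3CA mutant.

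Krt7 (ENSMUSG00000023039, chr15:101411043-101430313, plus strand, GRCm38), the type II keratin of ducts, showed the largest difference from WT of the 10 genes. It was at 93.2, 109 and 78.3 CPM in WT and at 167, 227, 146 and 263 in the PIK3CA mutant. The HER2 mutant samples held 144, 251, 418 and 177 CPM, and the double mutant samples 297, 785, 475, 276 and 284. Every mutant sample was above every WT sample, and every double mutant sample was above every PIK3CA mutant sample. Against WT, Krt7 was higher by 2.18 ± 0.408 (log2, SE) in the double mutant, adjusted p = 0.00272, which held in all 8 fits that left out 1 sample (1.83 to 2.30, adjusted p 0.00346 to 0.0253). It was higher by 1.40 ± 0.404 in the HER2 mutant, adjusted p = 0.0381. That call was lost when any of the 3 WT samples, or HER2 mutant sample 2 or 3, was left out, with differences of 1.03 to 1.59 and adjusted p up to 0.165. The difference of 1.10 ± 0.400 in the PIK3CA mutant had an adjusted p of 0.151. The double mutant differed from the PIK3CA mutant by 1.08 ± 0.349, adjusted p = 0.201, and from the HER2 mutant by 0.77 ± 0.346, adjusted p = 0.253. An antisense gene, Gm671, overlaps exons of Krt7, and its counts came to at most 1.53% of those of Krt7.

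Krt8 (ENSMUSG00000049382, chr15:101996698-102004482, minus strand), the main type II keratin of luminal cells, was low in WT and the HER2 mutant. It was at 313, 341 and 314 CPM in WT, at 266, 333, 506 and 353 in the HER2 mutant, at 639, 599, 508 and 668 in the PIK3CA mutant and at 722, 1223, 564, 537 and 504 in the double mutant. The PIK3CA mutant and the double mutant each lay wholly above WT, and 1 HER2 mutant sample, at 506, reached the lower end of the double mutant. Krt8 was higher in the double mutant than in WT by 1.14 ± 0.272, adjusted p = 0.0127. Without WT sample 1 or 3 this call was lost, with an adjusted p of up to 0.0685 and a difference of 0.85 to 1.24 over all 8 fits. Krt8 was also higher in the double mutant than in the HER2 mutant, by 0.96 ± 0.244 with an adjusted p of 0.0493. That call was lost in 7 of 9 fits without 1 sample (HER2 mutant 1, 2 and 4 and double mutant 1, 2, 4 and 5), with differences of 0.67 to 1.16. The PIK3CA mutant differed from WT by 0.90 ± 0.279, adjusted p = 0.0837, and the HER2 mutant from WT by 0.18 ± 0.273. The near copy Krt8-ps, 98.6% identical over 941 bases, held at most 1.63% as many counts as Krt8.

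Krt18 (ENSMUSG00000023043, chr15:102028180-102032027, plus strand), the type I partner of Krt8, was at 529, 510 and 550 CPM in WT and at 935, 1005, 890 and 1134 in the PIK3CA mutant. The HER2 mutant samples held 340, 578, 884 and 499 CPM, and the double mutant samples 765, 1593, 803, 664 and 555. Both groups with the PIK3CA mutation lay wholly above WT, by a narrow margin in the double mutant, while the HER2 mutant lay on both sides of WT. No comparison of Krt18 passed the test. Its difference from WT was 0.90 ± 0.330 in the PIK3CA mutant (adjusted p = 0.154), 0.73 ± 0.316 in the double mutant (adjusted p = 0.151) and 0.12 ± 0.323 in the HER2 mutant (adjusted p = 0.857).

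Krt19 (ENSMUSG00000020911, chr11:100140810-100148665, minus strand), a small type I keratin of luminal cells, separated the samples by the PIK3CA mutation among the tumors. It was at 430, 415, 305 and 426 CPM in the PIK3CA mutant and at 503, 379, 273, 386 and 465 in the double mutant, but at 226, 151, 110 and 149 in the HER2 mutant. All 9 samples with the PIK3CA mutation were above all 4 of the HER2 mutant. The WT samples were spread widely, at 162, 333 and 98.0 CPM. Krt19 was lower in the HER2 than in the PIK3CA mutant by a log2 difference of -1.31 ± 0.312, adjusted p = 0.0276, and higher in the double than in the HER2 mutant by 1.34 ± 0.300, adjusted p = 0.0306. The first call was lost in 5 of 8 fits without 1 sample (PIK3CA mutant 1, 2 and 4, HER2 mutant 3 and 4), with adjusted p up to 0.0720 and differences of -1.53 to -1.17. The second was lost in 6 of 9 (HER2 mutant 2, 3 and 4, double mutant 1, 4 and 5), with adjusted p up to 0.0698 and differences of 1.19 to 1.55. Against WT, the double mutant differed by 1.02 ± 0.329 (adjusted p = 0.0552) and the PIK3CA mutant by 1.00 ± 0.339 (adjusted p = 0.123). The difference of the double mutant passed the test with no low-count filter (adjusted p = 0.0465) and with DESeq2 (adjusted p = 0.0222), and missed it under both other scalings, with only the genotypes compared and without double mutant samples 2 and 3, with adjusted p of 0.0543 to 0.0962. Without WT sample 2, which holds the 333 CPM, the differences of the double and the PIK3CA mutant became 1.63 (adjusted p = 0.00392) and 1.60 (adjusted p = 0.00789).

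Among the 7 keratins described here, the balance between type II and type I was shifted to type II in the samples with the HER2 mutation. The ratio of summed type II (Krt7, Krt8 and Krt6a) to summed type I members (Krt18, Krt19, Krt15 and Krt23), in CPM per kb of exon, was 0.349 to 0.390 in WT and 0.351 to 0.386 in the PIK3CA mutant. It was 0.422 to 0.502 in the HER2 mutant and 0.448 to 0.559 in the double mutant. All 9 samples with the HER2 mutation were thus above all 7 without it, also with the longest transcript as the length of each gene. The ratio of Krt7 to Krt8 showed the same order, at 0.0692 to 0.109 in the 7 samples without the HER2 mutation and 0.114 to 0.234 in the 9 with it. The ratio of Krt7 to Krt19 did not split the samples in this way. It was 0.0862 to 0.210 in WT and 0.102 to 0.163 in the PIK3CA mutant. In the HER2 mutant it was 0.168 to 0.999 and in the double mutant 0.155 to 0.545. The ratio of Krt8 to Krt18 was 0.419 to 0.501 in WT and the PIK3CA mutant and 0.515 to 0.692 in the double mutant, while the HER2 mutant, at 0.420 to 0.575, spanned both. These ratios were chosen after the levels had been seen, and no test was made of them. The ratio of type II to type I members leaves out the basal keratins Krt5, Krt14 and Krt17. These held 17.1% to 29.6% of the summed keratin level in WT and 5.33% to 37.9% in the HER2 mutant. That ratio therefore does not describe the balance over all keratins.

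**Figure D3:**
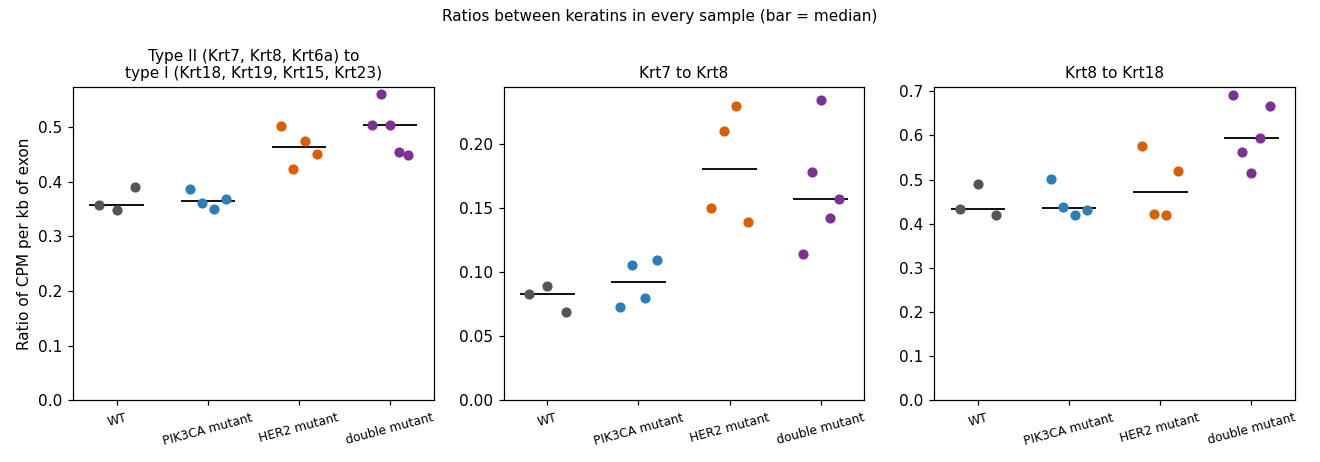
Ratios of keratin levels in every sample, each level in CPM per kb of exon, with bars at the medians. Type II keratins here are Krt7, Krt8 and Krt6a, and type I keratins are Krt18, Krt19, Krt15 and Krt23, with the basal keratins left out. Their ratio reaches at most 0.390 in WT and the PIK3CA mutant and is at least 0.422 in the HER2 and double mutants. Krt7 to Krt8 splits the samples in the same way.

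Epcam gave a reference from within the epithelium for the comparisons with WT, because it had the smallest spread of the 10 genes over the samples. As ratios of CPM to that of Epcam in the same sample, Krt7 was 0.163 to 0.214 in WT, 0.228 to 0.400 in the PIK3CA mutant, 0.292 to 0.687 in the HER2 mutant and 0.515 to 1.12 in the double mutant. Krt8 was 0.640 to 0.667 in WT and 1.00 to 1.75 in the double mutant, and Cd24a was 0.278 to 0.390 in WT and 0.517 to 0.780 in the double mutant. Epcam is itself 1 of the 10 genes and was chosen for its small spread in these samples. The ratios therefore stay close to the CPM and are no separate support. In the PIK3CA mutant, Epcam also lay wholly above WT. As in CPM, none of the 3 genes called in the double mutant overlapped WT. Krt18, which lay above WT in CPM in the double mutant, overlapped WT as a ratio, at 1.11 to 2.28 against 0.998 to 1.15. These ratios were also chosen after the levels had been seen.

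Krt15, Krt6a and Krt23 were the low and variable keratins, and no comparison of them passed the test. Krt15 (ENSMUSG00000054146, chr11:100131758-100135928, minus strand) was at 62.4, 58.0 and 24.3 CPM in WT, at 54.7, 27.7, 16.01 and 23.1 in the PIK3CA mutant, at 11.4, 7.31, 0.779 and 28.9 in the HER2 mutant and at 22.7, 5.14, 8.75, 52.6 and 59.1 in the double mutant. The HER2 mutant was lowest on average, and its highest sample overlapped the lowest of WT. The difference between the HER2 mutant and WT was -2.0 ± 0.883, adjusted p = 0.167. Krt23 (ENSMUSG00000006777, chr11:99477974-99493137, minus strand) was at 9.79 to 12.6 CPM in the PIK3CA mutant and 5.38 to 7.54 in WT, with no overlap. It was at 26.0, 1.68, 1.29 and 18.0 CPM in the HER2 mutant and at 7.94, 2.03, 1.41, 5.65 and 5.02 in the double mutant, so its spread within each of these groups was wider than its difference between PIK3CA mutant and WT. The difference of the double mutant from the HER2 mutant was -1.41 ± 0.690, adjusted p = 0.301.

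Krt6a (ENSMUSG00000058354, chr15:101689910-101694307, minus strand) was at 9.12, 23.7 and 13.1 CPM in WT and between 0.598 and 15.6 in the PIK3CA mutant. In the HER2 mutant it was at 84.8, 1.95, 6.65 and 0.266 CPM, a range of 319-fold within a single genotype, and in the double mutant at 2.43 to 13.7. HER2 mutant sample 1 held the highest level, and no pair of genotypes was free of overlap. Without that sample, the difference of the HER2 mutant from WT changed sign, from 0.61 ± 1.23 to -2.37. The same sample also had the highest levels of Krt14 (507 CPM), Krt16 (46.4 CPM) and Krt6b (15.7 CPM), keratins of basal or injured epithelium, of any sample. Krt6b is 97.1% identical to Krt6a over 1189 bases and had up to 43.1% as many counts, so the split of reads between these copies is uncertain.

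Of all 54 keratin genes, the 7 keratins described here made up most of the summed level per kb in every sample. Their share was 69.2% to 81.5% in WT, 73.7% to 90.3% in the PIK3CA mutant, 57.5% to 93.8% in the HER2 mutant and 72.6% to 89.6% in the double mutant, and these ranges overlapped. The basal keratins Krt5, Krt14 and Krt17 held 5.33% to 37.9% in the HER2 mutant, the widest range of the genotypes, with the top of it in sample 1. Krt5 alone was at 14.1 to 52.0 CPM in the HER2 mutant, below every sample of WT (131 to 345), the PIK3CA mutant (99.6 to 412) and the double mutant (69.0 to 346).

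**Figure D4:**
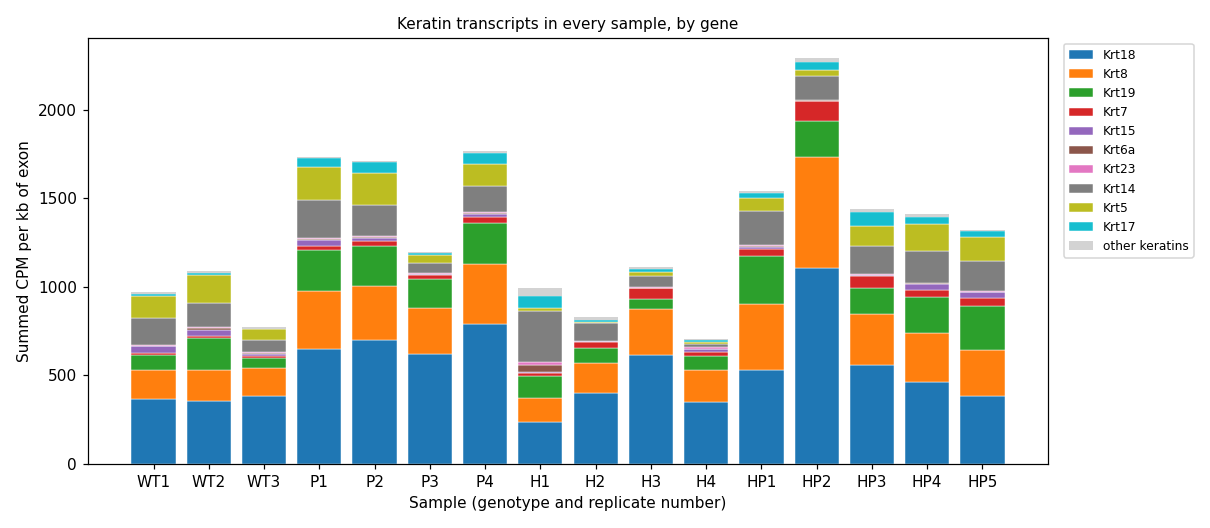
Summed level of all keratin genes in every sample, in CPM per kb of exon, split by gene (WT, P = PIK3CA mutant, H = HER2 mutant, HP = double mutant). Krt18 and Krt8 fill the larger part of most bars, Krt5 is thin in the 4 HER2 mutant samples, and Krt14 is thickest in HER2 mutant sample 1.

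Of the surface markers, Cd24a rose in the double mutant and the others passed no test. Cd24a (ENSMUSG00000047139, chr10:43578284-43584265, plus strand) was at 191, 193 and 133 CPM in WT, at 273, 313, 180 and 287 in the PIK3CA mutant, at 203, 256, 340 and 261 in the HER2 mutant and at 372, 546, 332, 277 and 277 in the double mutant. The HER2 mutant and the double mutant each lay wholly above WT, and the PIK3CA mutant overlapped WT through its sample 3. Cd24a was higher in the double mutant than in WT by 1.07 ± 0.251, adjusted p = 0.0115. That call was lost only without WT sample 3, with an adjusted p of 0.0877 and a difference of 0.91. The differences from WT of the PIK3CA mutant (0.61 ± 0.256, adjusted p = 0.225) and the HER2 mutant (0.62 ± 0.256, adjusted p = 0.137) were of like size. Its near copy Gm6212, 95.2% identical over 228 bases, had at most 0.548% as many counts.

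Kit (ENSMUSG00000005672, chr5:75574916-75656722, plus strand) was at 196, 211 and 185 CPM in WT and at 300, 259, 226 and 237 in the PIK3CA mutant. The HER2 mutant samples held 197, 46.1, 163 and 299 CPM, and the double mutant samples 214, 113, 68.9, 144 and 85.3. Every PIK3CA mutant sample was above every WT sample and above every double mutant sample, while the HER2 mutant spread over all of them. The double mutant differed from the PIK3CA mutant by a log2 difference of -1.03 ± 0.386, adjusted p = 0.276, and from WT by -0.65 ± 0.415, adjusted p = 0.334. Mast cells and melanocytes also carry Kit. Their markers were low, at 0 to 0.148 CPM summed over 5 mast cell genes, of which Fcer1a had no count in any sample, and at 1.38 to 3.62 CPM summed over 4 melanocyte genes.

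Epcam (ENSMUSG00000045394, chr17:87635979-87651129, plus strand) was the steadiest of the 10 genes. It was at 489, 511 and 479 CPM in WT, at 584, 677, 641 and 658 in the PIK3CA mutant, at 492, 567, 608 and 606 in the HER2 mutant and at 496, 699, 506, 535 and 500 in the double mutant. The PIK3CA mutant lay wholly above WT, and the double mutant overlapped WT. The difference from WT was 0.38 ± 0.140 in the PIK3CA mutant (adjusted p = 0.162), 0.20 ± 0.139 in the HER2 mutant (adjusted p = 0.382) and 0.15 ± 0.133 in the double mutant (adjusted p = 0.509). Its interaction was -0.43 ± 0.185, with an unadjusted p of 0.0336 and an adjusted p of 0.312.

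Counted by separation of the samples, 6 of the 10 genes in the PIK3CA mutant lay wholly above WT (Krt7, Krt8, Krt18, Krt23, Kit and Epcam), where 13.8% of all tested genes did. In the double mutant 4 lay wholly above WT (Krt7, Krt8, Krt18 and Cd24a), where 9.68% of all genes did, and in the HER2 mutant 2 did (Krt7 and Cd24a), where 9.81% did. The other genes overlapped WT in that comparison. Against the PIK3CA mutant, 3 lay wholly lower in the HER2 mutant (Krt8, Krt18 and Krt19), where 6.87% of all genes did. The double mutant lay wholly above the HER2 mutant for Krt19 (2.21% of all genes did), wholly above the PIK3CA mutant for Krt7 (3.42%) and wholly below the PIK3CA mutant for Krt23 and Kit (4.50%).

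Within the genotypes the 10 genes did not vary independently. After the mean of each genotype was removed from log2 CPM, Krt8 and Krt18 correlated at r = 0.932 over the 16 samples. Krt7 and Krt18 correlated at 0.906, Krt7 and Cd24a at 0.831 and Krt8 and Cd24a at 0.866. Epcam ran with the same keratins, at r = 0.742 to Krt7, 0.785 to Krt8 and 0.817 to Krt18. Krt7 ran against Krt15 (r = -0.751) and Krt23 (r = -0.770), and Krt23 ran with Krt15 (r = 0.713) and Kit (r = 0.685). Krt19 had r = -0.191 to Krt7, -0.102 to Krt8 and -0.366 to Krt18, and r = 0.506 to Krt15, 0.455 to Krt23 and 0.253 to Kit. HER2 mutant samples 2 and 3 and double mutant samples 2 and 3 had the lowest Krt15 and Krt23 of their genotypes and the highest Krt7. These are the same libraries in every pair of genes, and double mutant samples 2 and 3 are those that stood apart on the second principal component. Without both of them, Krt7 was higher than WT by 1.61 (adjusted p = 0.0102), Krt8 by 0.87 (adjusted p = 0.0221) and Cd24a by 0.84 (adjusted p = 0.0392). Against the HER2 mutant, Krt19 then differed by 1.51 (adjusted p = 0.0245), while Krt8, at 0.69, no longer passed (adjusted p = 0.0604).

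**Figure D5:**
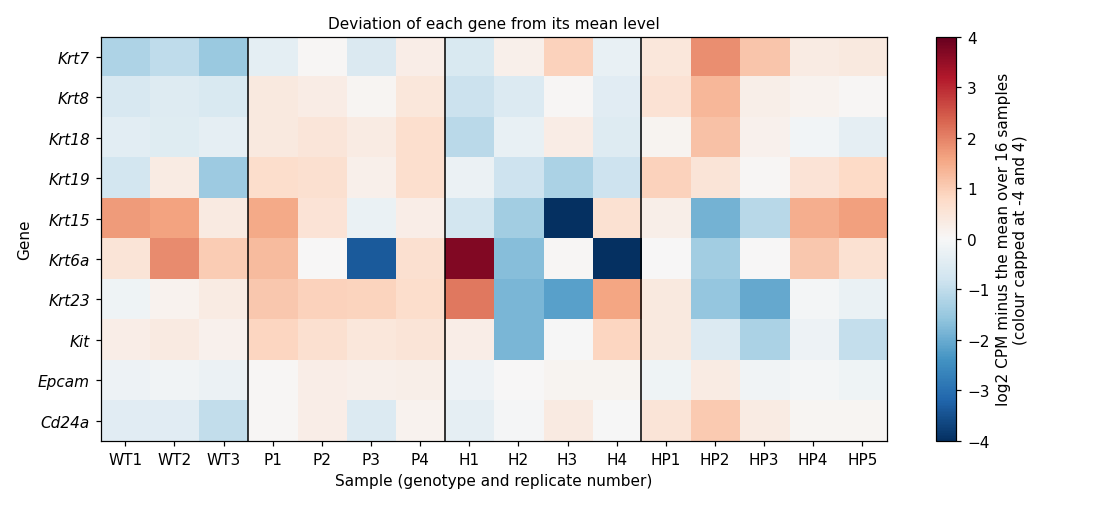
Log2 CPM of each gene in every sample minus its mean over the 16 samples (red higher, blue lower, colour capped at -4 and 4; WT, P = PIK3CA mutant, H = HER2 mutant, HP = double mutant). Double mutant samples 2 and 3 are red for Krt7 and blue for Krt15, Krt23 and Kit, and HER2 mutant sample 1 is dark red for Krt6a.

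Other genes of the tissue were read from lists of markers. Over all tested genes, 4.52% changed in the PIK3CA mutant, 10.4% in the HER2 mutant and 11.8% in the double mutant against WT. Between the double and HER2 mutants 2.50% changed, and between the HER2 and PIK3CA mutants 4.41%. Of 12 luminal progenitor and alveolar markers, 3 were higher and 0 lower in the PIK3CA mutant than in WT (Itga2, Ehf and Wfdc18), with a median log2 difference of 0.47. In the HER2 mutant 3 were higher (Lcn2, Wfdc18 and Csn3) and 1 lower (Itgb3), and in the double mutant 3 were higher (Itga2, Wfdc18 and Csn3) and 1 lower (Itgb3). Wfdc18, a milk-type protease inhibitor, was at 33.2 CPM on average in WT and at 121, 212 and 135 in the PIK3CA, HER2 and double mutants. Itgb3, an integrin subunit of luminal progenitors, was at 245 CPM in WT, 247 in the PIK3CA mutant, 76.6 in the HER2 mutant and 110 in the double mutant. Against the PIK3CA mutant, the HER2 mutant had 2 of the 12 lower (Itgb3 and the lipopolysaccharide co-receptor Cd14) and 0 higher.

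Of 10 tested hormone-sensing luminal markers, 0 were higher and 1 lower than WT in the PIK3CA mutant. In the HER2 mutant 1 was higher and 0 lower, and in the double mutant 2 were higher and 1 lower. Over all tested genes, 4.52%, 10.4% and 11.8% changed in these comparisons. By its averages, Foxa1, a factor that opens chromatin for the estrogen receptor, followed the order of Krt19 among the tumors. It averaged 45.0 CPM in the PIK3CA mutant, 10.8 in the HER2 mutant and 55.7 in the double mutant. Unlike Krt19, it overlapped between the double and HER2 mutants. Double mutant sample 2 was at 10.1 CPM, inside the 3.98 to 20.1 of the HER2 mutant. Foxa1 is named here after its values were seen. It was lower in the HER2 than in the PIK3CA mutant by a log2 difference of -2.06 ± 0.547 (adjusted p = 0.0450) and higher in the double than in the HER2 mutant by 2.37 ± 0.538 (adjusted p = 0.0322). Esr1, the estrogen receptor, was lower than WT in the PIK3CA mutant and in the double mutant, at 18.4 and 18.1 CPM against 35.2. Areg, an epidermal growth factor receptor ligand, was at 1.40 CPM in WT, 2.06 in the PIK3CA mutant, 6.66 in the HER2 mutant and 10.8 in the double mutant, and was higher in each group with the HER2 mutation than in each group without it.

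Of 18 epithelial surface and identity genes, which include cadherin 1 and claudins, 1 was lower than WT in the HER2 mutant and in the double mutant (Ovol2, a transcription factor of epithelial identity), and 1 was lower in the double than in the HER2 mutant (Elf3, an ETS factor of epithelia). Against WT, 10.4% of all tested genes changed in the HER2 mutant and 11.8% in the double mutant. The 1 of 18 was not above these shares. Of 11 desmosome and keratin-linker genes, which anchor keratin filaments at cell junctions, the HER2 mutant had 1 higher (Dsc2) and 1 lower (Pkp3) than WT, and the double mutant had 1 higher (Dsc2). Dsc2 averaged 10.4 CPM in WT, 35.4 in the HER2 mutant and 26.0 in the double mutant, with some overlap. Of 10 genes for the ligand and adaptors of Kit, 1 was lower in the HER2 than in the PIK3CA mutant, where 4.41% of all genes changed. This was Kitl, the ligand of Kit, at 295 CPM in the PIK3CA mutant and 131 in the HER2 mutant. Its log2 difference was -1.17 ± 0.287 with an adjusted p of 0.0313. Shc1, an adaptor of receptor tyrosine kinases, was lower than WT in the PIK3CA and HER2 mutants, at 100 and 87.2 CPM against 151. It was the 1 of 10 called in each, where 4.52% and 10.4% of all genes changed. In the double mutant against WT, 0 of 10 were called.

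Of 11 basal and myoepithelial markers, 4 were lower in the HER2 mutant than in WT and 5 lower than in the PIK3CA mutant, and none was higher. In these comparisons 10.4% and 4.41% of all tested genes changed. Krt5 averaged 34.1 CPM in the HER2 mutant against 252 in WT (adjusted p = 0.00592) and 227 in the double mutant (adjusted p = 0.0152). Mylk, the myosin light chain kinase of contractile cells, was at 4.92 CPM in the HER2 mutant, 32.9 in WT and 18.3 in the double mutant. The other 7 were not called in the HER2 mutant against WT. Of these, Krt14 averaged 207 CPM in the HER2 mutant and 211 in WT. Krt17 (40.0 against 12.3 CPM) and Tagln (0.937 against 0.847 CPM) averaged higher than in WT, and the rest of the 7 averaged lower. Summed over the 11 genes, basal markers held 531 to 1116 CPM in WT, 556 to 1464 in the PIK3CA mutant, 277 to 1003 in the HER2 mutant and 597 to 1096 in the double mutant. The basal sum of the HER2 mutant reached lowest but overlapped that of every other genotype. This genotype also had the lowest average of Krt15 and Krt19. Whether the content of basal cells took part in the differences of the 10 genes was not tested.

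The 2 genes most like each of the 10 were taken by Pearson correlation of log2 CPM over the 16 samples. The search covered tested genes with a mean log2 CPM of at least 1. It left out the 10 genes themselves and genes with predicted or provisional names. Kpna1 (r = 0.972) and Eif4ebp1 (r = 0.966) were closest to Krt7, and Rbis and Eif4ebp1 (both r = 0.931) to Cd24a. Krt8-ps (r = 0.963), the near copy named above, and Bcl10 (r = 0.956) were closest to Krt8, and Chmp4c (r = 0.923) and Gng5 (r = 0.920) to Krt18. Rbp7 (r = 0.894) and Padi3 (r = 0.883) followed Krt19, Carmil1 (r = 0.929) and Nme5 (r = 0.896) followed Krt15, and Rsf1 (r = 0.945) and Bhlhb9 (r = 0.936) followed Krt23. Mreg (r = 0.854) and Ak1 (r = 0.824) were closest to Krt6a, Ppfibp2 (r = 0.861) and Sox10 (r = 0.852) to Kit, and Tpt1 (r = 0.890) and Ubxn7 (r = 0.886) to Epcam. The genotypes differ in mean level and the points are the same libraries, so these values describe the samples and carry no test.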

How the data were processed

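RNA sequencing of 16 mouse mammary organoid samples was analysed from the table of whole-number gene counts that the authors deposited (unit: counts, with no normalization). Per the submitters' processing notes, the tools included bcl2fastq 2.20, STAR 2.0.4b, Subread, featureCounts 1.4.5 and DESeq2 1.33.5, with build mm10. Whether the counting used strand or multiply mapped reads is not given in the sources used here. Of 55774 entries, 287 repeats were dropped. The authors also deposited normalized values, not used here.

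Samples were grouped by genotype label. The labels do not say that replicates came from separate animals, so p-values measure only the spread between these samples. edgeR 4.0.16 (R 4.3.3) was run with filterByExpr, TMM scaling and the two-sided quasi-likelihood test in 1 fit of the 16 samples, with Benjamini-Hochberg adjustment over all 24252 tested genes. The SE is the absolute log2 fold change divided by the square root of F. Log2 CPM used a prior count of 2. The fit was tested on simulated data. Gene positions and lengths came from the GRCm38 annotation, and promoter windows from RefSeq. Alternatives were other scaling, no low-count filter, DESeq2 1.42.0, only the genotypes compared, a replicate block and leaving out samples. The 10 genes and the marker lists were chosen with earlier results of these data known. The text names the 10 genes, the 2 most similar genes of each and some of the genes called in each list. Of the called genes, those other than the ones with the largest and smallest change were chosen after their values were seen.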

Additional observations from a re-analysis of the deposited data

Results flagged for a closer look

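In groups of 4 or 5 samples, 4 of the 30 combinations of gene and genotype held a sample far from the others, where chance gives about 1 in 20. Krt18 was at 1593 CPM in double mutant sample 2, against 555 to 803 in the other 4, and Epcam was at 699 CPM in the same sample, against 496 to 535. Krt19 was at 305 CPM in PIK3CA mutant sample 3, against 415 to 430 in the other 3. Krt6a was at 84.8 CPM in HER2 mutant sample 1, against 0.266 to 6.65 in the other 3.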

How the results depend on the processing

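The direction and call of Krt7, Krt8 and Cd24a in the double mutant against WT were the same under each alternative scaling, no low-count filter, DESeq2, the replicate block, only the genotypes compared and without double mutant samples 2 and 3, the last chosen after seeing the data. In no comparison did every same-numbered pair of samples correlate above 0.1 after the genotype means were removed, so the replicate block stands here only. Between the double and HER2 mutants, however, 3 of 4 same-numbered pairs did. Their r was 0.071 to 0.273, with a mean of 0.157 against -0.041 for pairs of other numbers. The labels do not say whether samples of the same number belong together, so a pairing in that comparison remains possible.

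Of the 10 genes, those called between the double and HER2 mutants fell from 2 to 1 with upper-quartile scaling, 1 with the replicate block, 1 without double mutant samples 2 and 3 and 0 with only the genotypes compared. In the double mutant against WT, no low-count filter, the replicate block and DESeq2 each gave 4 in place of 3, Krt19 being added (adjusted p = 0.0331 with the block). In the HER2 mutant against WT, the block gave 2 and only the genotypes compared 0, in place of 1. In the PIK3CA mutant against WT, DESeq2 gave 1 and only the genotypes compared 6, in place of 0. Leaving out 1 sample gave 0 to 1 (PIK3CA mutant against WT), 0 to 1 (HER2 mutant against WT), 1 to 4 (double mutant against WT), 0 to 2 (double against HER2 mutant), 0 to 0 (double against PIK3CA mutant), 0 to 1 (HER2 against PIK3CA mutant) and 0 to 0 (interaction).

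Over all genes, 1096 were called in the PIK3CA mutant against WT (only the genotypes compared 4136, DESeq2 1814, without 1 sample 396 to 1043), 2518 in the HER2 mutant against WT (block 1625, only the genotypes compared 541, without 1 sample 733 to 2693) and 2850 in the double mutant against WT (without 1 sample 1173 to 2961). Between the double and HER2 mutants 606 were called (block 118, only the genotypes compared 37, DESeq2 1652, without double mutant samples 2 and 3 1125, without 1 sample 256 to 975), between the double and PIK3CA mutants 163 (block 19, only the genotypes compared 364, DESeq2 613, without 1 sample 17 to 143), between the HER2 and PIK3CA mutants 1069 (block 552, only the genotypes compared 534, DESeq2 2127, without 1 sample 427 to 1166), and for the interaction 257 (block 35, DESeq2 928, without double mutant samples 2 and 3 998, without 1 sample 54 to 382). The causes were not tested.

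Differences that changed sign were all of uncalled genes. With the replicate block these were Krt6a (-0.86) and Krt23 (-0.21) in the HER2 mutant against WT, Krt19 (-0.052) and Krt6a (0.23) in the double against the PIK3CA mutant, Krt23 (-0.71) in the HER2 against the PIK3CA mutant and the interaction of Krt6a (1.09). Cd24a in the HER2 against the PIK3CA mutant became -0.0091 with no low-count filter and -0.0008 with only the genotypes compared. Without double mutant samples 2 and 3, Krt8 (-0.038), Krt15 (0.56) and Krt6a (0.29) changed sign in the double against the PIK3CA mutant, and Krt8 (-0.21) in the interaction.

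Without 1 sample, differences of the HER2 mutant from WT ran from -0.024 to 0.30 (Krt8), -0.17 to 0.30 (Krt18), -0.64 to 0.29 (Krt19), -2.37 to 1.08 (Krt6a) and -0.54 to 0.16 (Kit). Those of the HER2 from the PIK3CA mutant ran from -0.074 to 0.49 (Krt7), -1.48 to 2.03 (Krt6a), -0.68 to 0.44 (Krt23) and -0.14 to 0.12 (Cd24a). Those of the double from the PIK3CA mutant ran from -0.052 to 0.34 (Krt8), -0.079 to 0.14 (Krt19), -0.45 to 0.41 (Krt15) and -0.46 to 0.45 (Krt6a), and of the double from the HER2 mutant from -1.99 to 1.41 (Krt6a). Interactions ran from -0.67 to 0.049 (Krt7), -0.23 to 0.26 (Krt8), -0.27 to 0.66 (Krt19) and -1.15 to 2.31 (Krt6a). Upper-quartile scaling moved the median of all genes to 0.12 in the HER2 against the PIK3CA mutant. With 3 to 5 samples a genotype, Krt15, Krt6a and Krt23 spread widely, with an SE of 0.69 to 1.23 for differences between genotypes. Differences well above their SE could therefore be missed. For Krt15, -2.0 ± 0.883 in the HER2 mutant against WT was not called (adjusted p = 0.167).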

Other observations

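Some of the other keratins moved further than the 7 keratins described above, at low levels. Of the 47 other keratin genes 22 passed the low-count filter. Krt4, a keratin of stratified epithelium, was at 7.37 ± 1.71 CPM in WT (SD, n = 3) and at 0.346, 0.128 and 0.449 in the PIK3CA, HER2 and double mutants, lower in each at adjusted p of 0.00290, 0.000904 and 0.00128. Krt87 was at 1.92 CPM in WT and rose to 10.7 in the HER2 mutant (adjusted p = 0.0340) and 11.9 in the double mutant (adjusted p = 0.0208). Krt17, a keratin of basal and injured epithelium, was at 12.3 CPM in WT, 71.0 in the PIK3CA mutant, 40.01 in the HER2 mutant and 69.3 in the double mutant, where it was higher than in WT by 2.49 ± 0.741 (log2, SE; adjusted p = 0.0391). Its 5 double mutant samples, at 40.5 to 129 CPM, lay wholly above the WT samples, at 5.54 to 20.2.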
